A study of Mus musculus with 13 samples.

Results

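The 8 genes Erg, Fli1, Ets1, Sox7, Sox17, Sox18, Tal1 and Klf2 encode transcription factors known for their roles in endothelium, and their chromatin was followed here across the cell types of the mouse kidney. Every peak that overlapped the gene body or the 2 kb upstream of it in the GENCODE annotation was taken as a peak of the gene. This gave 139 of the 300755 peaks of the series, and the 8 genes are among 32949 genes with at least 1 peak in such a window. Erg had 38 peaks, Fli1 had 42, Ets1 had 45, Sox17 had 4, Sox7, Sox18 and Tal1 had 3 each, and Klf2 had 1. The genes are given by name, without a threshold on these values, but were chosen with earlier results of these data known.

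The data come from single nucleus ATAC-seq (snATAC-seq) of whole mouse kidneys, an assay in which the transposase Tn5 tags open DNA. There were 5 samples, 2 from P0 mice and 3 from adult mice. Of the adult samples 1 is from P21 (3 weeks) and 2 are from P56 (8 weeks). The study's methods name wild type neonates and C57BL/6 adults for its scRNA-seq, and for the snATAC-seq mice genotype and strain are not given in the sources used here. No treatment is named. The protocol gives the P0 mice as 1 day old, and it is not stated whether a sample holds 1 animal or several. So p-values measure the spread between these samples, and those of the interaction below the spread between cluster sums within them. A peak was called open in a nucleus when the deposited binarized matrix held a 1, and 13 of the 15 cluster names of the deposited annotation were used as cell types. The number of nuclei was 5993 and 5436 (P0), 3361 (P21), 7129 and 6397 (P56), with 16980853 to 43794155 open calls each (an open call is 1 open peak in 1 nucleus). The endothelial cluster held 2368 of the 27652 nuclei of the 13 clusters, namely 592 and 412 (P0), 221 (P21), 712 and 431 (P56). Endothelial nuclei were deeper at P0, with medians of 7195.5 and 6508.5 open peaks against 2099, 2441.5 and 2306 in the adult samples. Of 27834 barcodes, 477 occurred in 2 or more libraries, and 77 endothelial nuclei carried such a barcode.

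Erg, Fli1 and Ets1 belong to the ETS family, whose members bind a GGAA core, and Erg and Fli1 keep vascular endothelial identity in many organs. Sox7, Sox17 and Sox18 form the SoxF family, which acts in arterial and lymphatic specification. Tal1 is a bHLH factor shared by endothelium and blood, and Klf2 is a zinc finger factor induced by blood flow. Fli1 and Ets1 are also known from leukocytes. In the mm10 build the genes lie at chr16:95359169-95586593 (Erg, minus strand), chr9:32422204-32542861 (Fli1, minus strand), chr9:32636221-32757820 (Ets1, plus strand), chr14:63943673-63950732 (Sox7, plus strand), chr1:4490931-4497354 (Sox17, minus strand), chr2:181669836-181671640 (Sox18, minus strand), chr4:115056426-115071755 (Tal1, plus strand) and chr8:72319033-72321656 (Klf2, plus strand). Some Fli1 peaks also lie in predicted genes such as the antisense Gm27201, and the same holds for the antisense Gm27240 in Ets1 and for Gm37587 at Sox17, so the peaks cannot be told apart between these genes and their hosts.

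The sequences below are the central parts, of at most 300 bp, of 7 peaks that carry the pattern described further on, 1 each for 7 genes, and none of the printed letters lie in an annotated UTR. They are from introns of Erg (chr16:95463894-95464193), Fli1 (chr9:32525967-32526266), Ets1 (chr9:32674198-32674497) and Sox7 (chr14:63945235-63945489), from the peak over the Tal1 start region (chr4:115057116-115057415), and from upstream of Sox17 (chr1:4497518-4497817) and of Sox18 (chr2:181673597-181673896). All are GRCm38 (mm10), plus strand of the chromosome, 5′ to 3′. At the Sox18 peak the endothelial cluster had the largest share of open nuclei in 4 of 5 samples, and at the other 6 peaks in 5 of 5. These counts are not matched for depth. At matched depth, given further on, 0 of the 4 Sox17 peaks had it in 5 of 5. Capitals mark the letters of the motifs searched, on either strand, which are named after the sequences. No sequence is shown for Klf2, whose single peak covers its start and UTR.
Erg intron peak: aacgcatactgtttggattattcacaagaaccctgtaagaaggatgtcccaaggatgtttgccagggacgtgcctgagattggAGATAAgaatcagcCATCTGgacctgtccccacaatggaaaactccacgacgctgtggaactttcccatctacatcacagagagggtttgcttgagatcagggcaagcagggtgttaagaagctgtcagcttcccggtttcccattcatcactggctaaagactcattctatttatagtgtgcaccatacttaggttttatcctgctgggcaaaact
Fli1 intron peak: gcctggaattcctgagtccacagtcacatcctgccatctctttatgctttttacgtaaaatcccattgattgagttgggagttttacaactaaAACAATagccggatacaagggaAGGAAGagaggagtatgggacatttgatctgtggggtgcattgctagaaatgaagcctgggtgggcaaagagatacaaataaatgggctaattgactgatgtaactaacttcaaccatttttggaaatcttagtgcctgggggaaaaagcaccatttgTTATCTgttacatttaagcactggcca
Ets1 intron peak: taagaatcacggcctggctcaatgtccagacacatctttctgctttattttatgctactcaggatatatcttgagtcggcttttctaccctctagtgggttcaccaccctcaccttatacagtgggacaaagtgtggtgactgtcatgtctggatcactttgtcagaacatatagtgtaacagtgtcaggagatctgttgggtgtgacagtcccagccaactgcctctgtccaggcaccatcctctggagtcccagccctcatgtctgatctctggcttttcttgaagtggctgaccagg
Sox7 intron peak: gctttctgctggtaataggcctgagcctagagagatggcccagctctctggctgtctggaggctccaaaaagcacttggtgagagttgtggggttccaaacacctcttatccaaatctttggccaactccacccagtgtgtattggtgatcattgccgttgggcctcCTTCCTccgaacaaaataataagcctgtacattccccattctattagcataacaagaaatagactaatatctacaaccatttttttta
Sox17 upstream peak: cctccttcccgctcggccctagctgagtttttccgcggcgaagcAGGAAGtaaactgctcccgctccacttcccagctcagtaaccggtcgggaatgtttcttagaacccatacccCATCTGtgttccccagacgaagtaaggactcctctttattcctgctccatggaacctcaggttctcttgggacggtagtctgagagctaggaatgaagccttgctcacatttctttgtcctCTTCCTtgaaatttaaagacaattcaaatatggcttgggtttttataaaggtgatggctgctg
Sox18 upstream peak: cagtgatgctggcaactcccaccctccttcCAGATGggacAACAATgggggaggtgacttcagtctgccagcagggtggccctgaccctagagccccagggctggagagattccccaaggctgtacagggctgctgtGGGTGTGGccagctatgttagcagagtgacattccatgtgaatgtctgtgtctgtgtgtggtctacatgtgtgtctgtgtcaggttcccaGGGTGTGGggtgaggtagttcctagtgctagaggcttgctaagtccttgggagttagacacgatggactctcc
Tal1 start region peak: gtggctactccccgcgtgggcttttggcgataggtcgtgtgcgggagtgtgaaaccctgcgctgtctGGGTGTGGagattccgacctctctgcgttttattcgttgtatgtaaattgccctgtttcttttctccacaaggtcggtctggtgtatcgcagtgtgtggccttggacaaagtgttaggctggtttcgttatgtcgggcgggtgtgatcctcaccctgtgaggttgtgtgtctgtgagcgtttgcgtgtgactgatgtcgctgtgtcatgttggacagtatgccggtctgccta
In the order of reading, the Erg sequence holds the GATA letters and then the E-box letters on the minus strand. The Fli1 sequence holds the SOX and ETS letters and then GATA on the minus strand, and the Ets1 sequence holds none of those searched. The Sox7 sequence holds ETS on the minus strand, and the Sox17 sequence holds ETS, then E-box and ETS on the minus strand. The Sox18 sequence holds E-box, SOX and then KLF in 2 places on the minus strand, and the Tal1 sequence holds KLF on the minus strand.

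The label of the endothelial cluster was set beside 10 endothelial marker genes that are not among the 8. The study named its clusters from open chromatin at marker genes in these same nuclei. For endothelium it names Egfl7, which is 1 of the 10, so this is not an independent check. All 10, from Pecam1 and Cdh5 (junction proteins) to Kdr, Flt1, Tek and Tie1 (receptors of vascular growth factors), had their largest share of open nuclei in this cluster in 5 of 5 samples, with means of 23.2% to 73.6%. In a longer list of 29 endothelial receptors, adhesion and signalling genes, which holds these 10, the cluster led at 18 in 5 of 5 samples, beside 1.17% of all genes with a peak. In this list Dll4 was led in 1 of 5 and Cldn5 and Ehd3 in 2 of 5. Clusters were made from these same nuclei, so differences between clusters are given below as sizes with no test. A gene is called led by the endothelial cluster in a sample when its share of open nuclei there, meaning nuclei with at least 1 open peak of the gene, was above that of each of the other 12 clusters.

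Erg, Fli1, Sox7, Sox17, Sox18 and Tal1 were led by the endothelial cluster in 5 of 5 samples. That is 6 of 8 genes, beside 1.17% of all genes with a peak. Klf2 was led in 4 of 5 samples and Ets1 in 1 of 5. These counts, and the share over all genes, rest on shares not scaled for depth. In nuclei thinned to an equal depth (below) Fli1 was led in 3 of 5 samples. At Klf2 immune nuclei were then above endothelial nuclei in 3 of 5. The share over all genes was not computed at equal depth.

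Erg separated the endothelial cluster from the rest of the kidney by the widest margin in points. It was open in 75.3% and 73.8% of endothelial nuclei at P0, and in 57.9% (P21), 58.8% and 60.3% (P56) in the adult, a mean of 65.2% ± 8.6 (SD, n = 5). By the mean of the 5 samples, the order used for each gene here, the next cluster was PT2, which with PT forms the proximal tubule in the deposited names, at 27.9% ± 12.3, then nephron progenitors at 23.4% ± 11.04 and stroma 1 at 22.1% ± 4.2, and these 3 followed no fixed order across samples. At P0 alone nephron progenitors were next (33.9% ± 4.2, PT2 26.1% ± 4.0), and in the adult PT2 was (29.1% ± 17.0), where P56 sample 2 had 48.6% and the other adult samples 17.3% and 21.3%. The other 9 clusters lay between 5.77% in PT and 14.8%, with immune nuclei at 6.41% ± 2.33. In no sample did another cluster reach the endothelial share, and the endothelial range did not overlap that of PT2.

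Fli1 was open in 79.1% and 73.8% of endothelial nuclei at P0, and 51.1% (P21), 55.2% and 63.6% (P56) in the adult (mean 64.5% ± 11.9). Immune nuclei followed at 49.8% ± 11.7, stroma 2 at 47.2% ± 7.5 and stroma 1 at 31.7% ± 11.4. The endothelial share exceeded the immune share in 5 of 5 samples, by 14.8 points ± 2.6, although the ranges over samples overlapped. Immune nuclei and stroma 2 differed by 2.57 points ± 5.41, less than the spread of their difference. This holds for shares not scaled for depth. In nuclei thinned to an equal depth (below) the immune share lay above stroma 2 in 5 of 5 samples.

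Ets1 had another order. Stroma 2 had the largest share in 4 of 5 samples, at 77.3% ± 4.0 over the 5 samples. Endothelial nuclei followed with 83.3% and 79.1% at P0, and 51.6% (P21), 55.9% and 55.5% (P56) in the adult (65.1% ± 14.9). At P0 the endothelial mean (81.2%) and that of stroma 2 (79.9%) were close, and in the adult the endothelial mean of 54.3% lay below stroma 2 (75.6%), podocytes (60.9%) and nephron progenitors (55.3%). These shares are not scaled for depth. The adult samples (P21, then P56 samples 1 and 2) hold 52, 90 and 53 nephron progenitor nuclei and 47, 157 and 39 podocyte nuclei. The study describes its nephron progenitor cluster as enriched at P0. In nuclei thinned to an equal depth (below) the adult endothelial mean lay above podocytes and nephron progenitors. Nephron progenitors (58.1% ± 9.8), podocytes (57.2% ± 9.2) and stroma 1 (56.9% ± 12.9) lay within the spread of the endothelial value, and the lowest cluster, PT, was still at 30.6%.

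**Figure D1:**
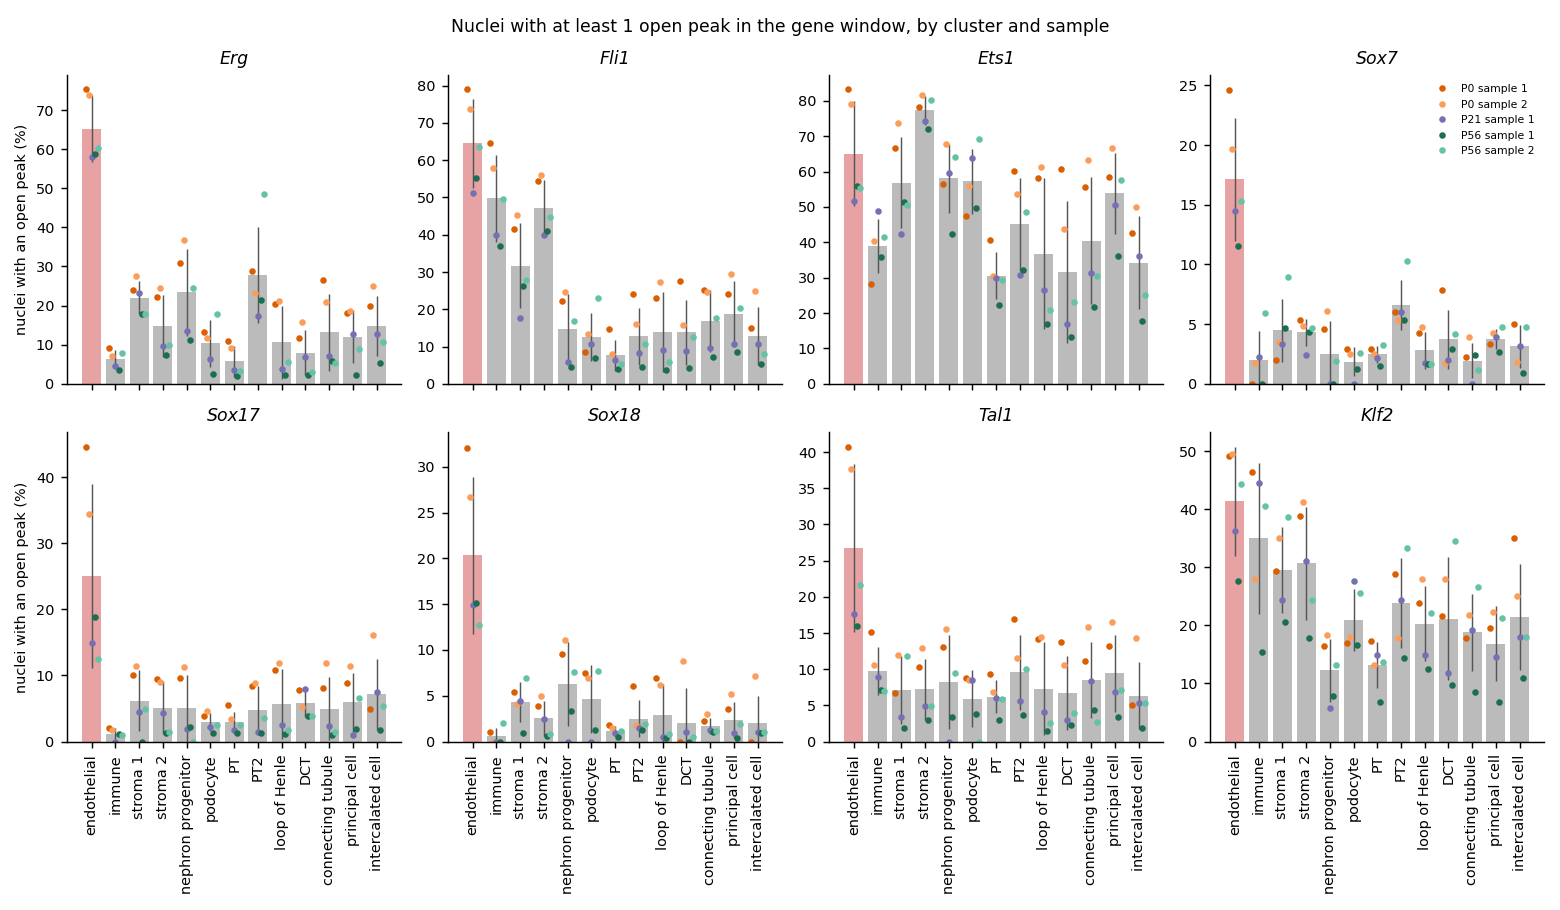
Share of nuclei (percent, y axis) with at least 1 open peak in the window of each of the 8 genes, in the 13 clusters (x axis). Bars are means of the 5 samples with the SD as error bars, points are the samples, and the endothelial bar is coloured. Erg, Sox7, Sox17, Sox18 and Tal1 stand out in the endothelial cluster, Fli1 is shared with immune and stromal clusters, Ets1 is highest in stroma 2, and Klf2 is spread over all clusters.

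The 3 SoxF genes had fewer open endothelial nuclei and lower shares elsewhere. They hold 3 or 4 peaks each, against 38 in Erg, 42 in Fli1 and 45 in Ets1. A share of nuclei with at least 1 open peak can only grow as peaks are added, so shares are not alike between genes. The part of peak number in these differences was not tested. Sox17 was open in 44.6% and 34.5% of endothelial nuclei at P0, and 14.9% (P21), 18.8% and 12.5% (P56) in the adult (25.1% ± 13.9). The next cluster, intercalated cells, was at 7.13% ± 5.39, and immune nuclei were lowest at 1.19%. Within a stage the next cluster was the loop of Henle at P0 (11.4%, intercalated cells 10.5%) and the distal convoluted tubule in the adult (5.25%, intercalated cells 4.86%). Sox18 was open in 32.1% and 26.7% of endothelial nuclei at P0, and 14.9% (P21), 15.2% and 12.8% (P56) in the adult (20.3% ± 8.5). Nephron progenitors followed at 6.32% ± 4.59, and immune nuclei were again lowest at 0.598%. Within a stage nephron progenitors were next at P0 (10.4%) and stroma 1 in the adult (4.10%, nephron progenitors 3.63%). Sox7 was open in 24.7% and 19.7% at P0, and 14.5% (P21), 11.5% and 15.3% (P56) in the adult (17.1% ± 5.1), with PT2 next at 6.61% ± 2.09. For Sox18 and Sox7 the endothelial range did not overlap that of the next cluster.

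Tal1 was open in 40.7% and 37.6% of endothelial nuclei at P0, and 17.6% (P21), 16.0% and 21.6% (P56) in the adult (26.7% ± 11.6). By the 5-sample mean the immune cluster came next at 9.73% ± 3.36, but PT2 (9.57% ± 5.20), principal cells (9.40% ± 5.34) and the connecting tubule (8.49% ± 5.29) did not differ from it beyond their spread. It was next in the adult (7.65%), while at P0 principal cells (14.9%) and 4 other clusters lay above its 12.8%. Klf2, measured through its single start peak, was open in 49.2% and 49.5% of endothelial nuclei at P0, and 36.2% (P21), 27.7% and 44.3% (P56) in the adult (41.4% ± 9.4). Its shares in immune nuclei (35.0% ± 13.05), stroma 2 (30.7% ± 9.8) and stroma 1 (29.6% ± 7.4) overlapped with the endothelial values, and no cluster had a mean under 12.3%.

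Relative to the mean of the other 12 clusters, and scaled for depth, the endothelial log2 fold was largest for Sox18 (3.92 ± 0.21 SE), followed by Erg (3.69 ± 0.15), Sox17 (3.31 ± 0.17), Fli1 (3.13 ± 0.12), Sox7 (2.97 ± 0.19) and Tal1 (2.55 ± 0.15). Ets1 (1.502 ± 0.137) and Klf2 (1.48 ± 0.10) had the smallest folds. The order by fold thus differed from the order by share, in which Erg, Ets1 and Fli1 had nearly the same endothelial mean.

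Shares of open nuclei depend on depth, so each nucleus was also thinned to 1000 open peaks, which left out shallower nuclei. In thinned nuclei Erg was open in 28.3% ± 5.9 of endothelial nuclei against 6.42% ± 2.31 in stroma 1, now the next cluster. Sox17 (6.56% ± 0.87), Sox18 (5.72% ± 0.66), Sox7 (5.31% ± 2.45) and Tal1 (7.15% ± 0.54) were still led by the endothelial cluster in 5 of 5 samples. Fli1 was at 27.8% ± 4.8 in endothelial and 26.5% ± 6.5 in immune nuclei, a difference of 1.25 points ± 9.09, and endothelial nuclei led in 3 of 5 samples. The order turned with stage. At P0 immune nuclei were higher (33.0% and 34.0% against 25.1% and 25.9%). In the adult samples endothelial nuclei were higher (25.4%, 26.1% and 36.3% against 22.5%, 19.5% and 23.7%). Stroma 2 was at 14.1% ± 1.6, below the immune share in 5 of 5 samples. Klf2 was at 11.4% ± 4.8 in endothelial and 12.2% ± 4.4 in immune nuclei. Ets1 was at 33.3% ± 8.0 in stroma 2 and 29.2% ± 2.4 in endothelial nuclei, with stroma 2 higher in 3 of 5 samples, the adult ones. At P0 endothelial nuclei were higher (29.1% and 27.5% against 24.9% and 24.8%). In the adult the thinned endothelial mean at Ets1 (29.8%) lay below stroma 2 (38.9%) but above podocytes (23.2%) and nephron progenitors (19.6%). Over the 5 samples the thinned endothelial and immune shares overlapped at Fli1 and Klf2, at Fli1 with no overlap within a stage. At Tal1 immune nuclei were at 2.76% ± 1.48, below the endothelial share in 5 of 5 samples.

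Several of the 8 genes could be open in 1 nucleus, more often in the endothelial cluster. An endothelial nucleus had on average 4.29 and 3.95 of the 8 genes open at P0, and 2.59 (P21), 2.59 and 2.86 (P56) in the adult. The means of the other clusters over the 5 samples ran from 0.699 in PT to 1.89 in stroma 2. At least 3 of the genes were open in 63.6% ± 15.8 of endothelial nuclei, in 28.4% ± 13.6 of stroma 2 nuclei and in 14.8% ± 6.7 of immune nuclei. After thinning, at least 3 were open in 9.72% ± 3.71, 0.743% ± 0.325 and 0.672% ± 0.959 of these nuclei. A thinned endothelial nucleus had 1.22 ± 0.18 of the genes open, an immune nucleus 0.613 ± 0.129 and a stroma 2 nucleus 0.605 ± 0.099.

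Single peaks showed where in the genes these differences lay. The endothelial cluster led in 5 of 5 samples at 23 of the 139 peaks, where the same held for 1.64% of all peaks. These were 7 of 42 peaks of Fli1, 5 of 38 of Erg, 3 of 45 of Ets1, 3 of 4 of Sox17, 2 of 3 each of Sox7 and Sox18, 1 of 3 of Tal1 and 0 of 1 of Klf2. With thinned nuclei 15 of the 139 peaks were led in 5 of 5 samples, beside 1.11% of all peaks. Of these 5 were in Erg, 4 in Fli1, 2 each in Ets1 and Tal1, 1 each in Sox7 and Sox18, and 0 in Sox17 and Klf2. A share of at least 5% in endothelial nuclei and in no other cluster was found at 20 of the 139 peaks, beside 1.63% of all peaks. Of the 139 peaks, 112 lay in introns, where 14 were led, and 10 lay over an annotated transcript start, where 5 were led. Most peaks of the long genes were rarely open, and the median endothelial share over the 139 peaks was 1.15%.

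In Erg the 5 led peaks were 122.5 to 182.9 kb inside the gene, counted from its outermost start. The most open was the intron peak shown above (chr16:95463701-95464387), at 33.4% and 27.2% of endothelial nuclei at P0, and 19.5% (P21), 13.1% and 25.5% (P56) in the adult, with the next cluster, stroma 1, at 1.99% ± 1.16. A peak over an internal transcript start (chr16:95459214-95459869) was open in 18.2% ± 4.5 of endothelial nuclei, and the highest other cluster, principal cells, had 0.904% ± 1.174. Its log2 fold over the other 12 clusters was 6.09 ± 0.25, beside 6.22 ± 0.23 for the intron peak. The peak nearest to the outermost start (chr16:95585491-95586289) was open in 3.03% ± 3.08 of endothelial nuclei and was led by them in 0 of 5 samples.

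In Fli1 the most open led peak (chr9:32506290-32506905, intron) was open in 18.5% ± 7.7 of endothelial nuclei against 3.18% ± 1.63 in stroma 1. The Fli1 intron peak shown above (chr9:32525843-32526391) had the largest log2 fold of the gene's peaks away from a start, 5.74 ± 0.27, at 10.4% ± 5.0. Other Fli1 peaks belonged to immune nuclei. Of the 139 peaks, 4 were led by the immune cluster in 5 of 5 samples, beside 1.03% of all peaks, and 3 of these were in Fli1 introns. At chr9:32501073-32501456 the immune share was 9.10% ± 4.19 and the endothelial share 0.567% ± 0.347, and at chr9:32508897-32509189 the shares were 9.06% ± 4.50 and 1.13% ± 0.73. Peaks led by either cluster thus lay beside each other in the gene. The Fli1 start peak (chr9:32541449-32542059) was open in 13.3% ± 5.9 of endothelial and 6.998% of immune nuclei, with stroma 2 at 8.34% ± 2.84.

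In Ets1 the most open peak (chr9:32671972-32673002, intron) was open in 22.7% ± 14.03 of endothelial nuclei but in 35.7% ± 6.3 of stroma 2 nuclei. About 2 kb away, the intron peak shown above (chr9:32674137-32674558) was open in 15.7% and 14.3% of endothelial nuclei at P0 and 4.52%, 4.78% and 4.18% in the adult samples, with stroma 2 at 1.72% ± 0.68. A further intron peak (chr9:32716057-32716628) reached 18.8% ± 8.2 in endothelial nuclei against 4.08% ± 1.01 in stroma 2. Neighbouring Ets1 peaks, all open in endothelial nuclei, thus differed in the cluster with the largest share. The peak over an internal Ets1 start (chr9:32695736-32696485) reached 5% in all 13 clusters and was highest in podocytes (28.6% ± 9.9).

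**Figure D2:**
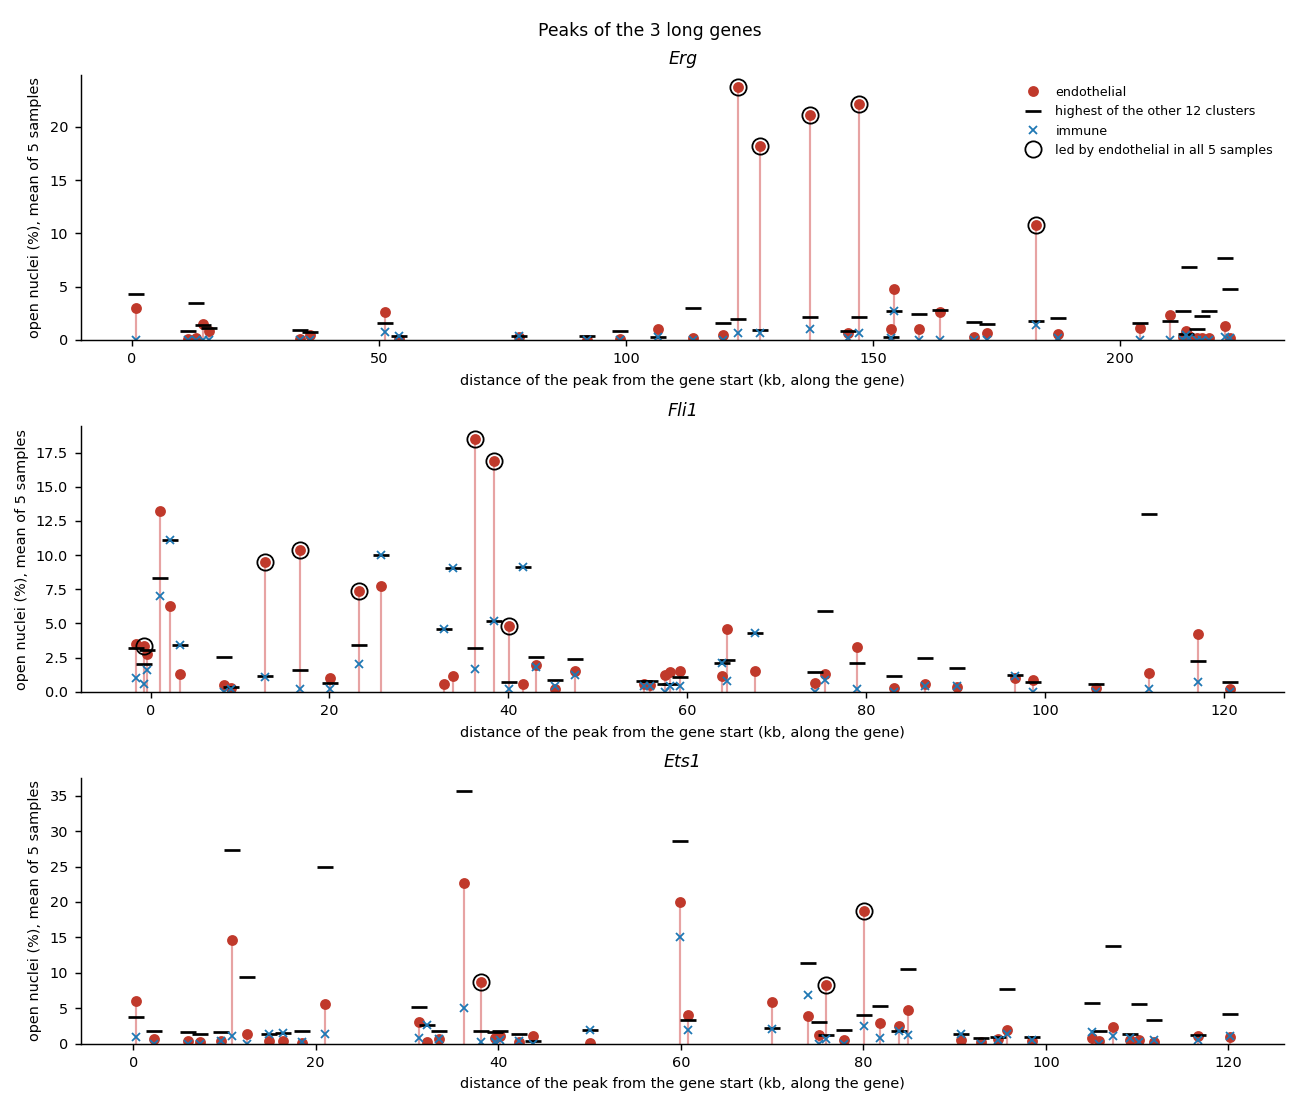
Mean share of open nuclei over 5 samples (percent, y axis) at each peak of Erg, Fli1 and Ets1, by distance from the gene's outermost start along the gene (kb, x axis). Red points are endothelial nuclei, black bars the highest of the other 12 clusters, blue crosses immune nuclei, and black circles peaks led by the endothelial cluster in 5 of 5 samples. Erg has a group of led peaks beyond 120 kb, Fli1 alternates between led and immune peaks, and Ets1 has led peaks beside peaks that are higher in other clusters.

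The short genes had few peaks. At Sox17 the most open peak, over a transcript start (chr1:4493326-4493998), was open in 10.3% ± 5.5 of endothelial nuclei and in 4.21% ± 3.79 of intercalated cells, and the upstream peak shown above in 5.38% ± 2.96. The Sox18 start peak (chr2:181671439-181671979) was open in 12.5% ± 2.8 of endothelial nuclei against 2.36% ± 1.73 in stroma 1, and the upstream Sox18 peak shown above in 4.55% ± 3.87. The Sox7 start peak (chr14:63943446-63944238) was open in 14.1% ± 4.0 of endothelial nuclei and in 5.83% ± 2.31 of PT2 nuclei, while its intron peak shown above reached only 2.25% ± 0.63, with PT2 at 0.371% ± 0.486. At Tal1 the peak over the start region (chr4:115056523-115058009) was open in 18.8% ± 8.3 of endothelial and 7.93% ± 1.88 of immune nuclei, and a second peak over its UTR (chr4:115062753-115063827) in 8.72% ± 5.29 of endothelial and 5.55% ± 4.50 of nephron progenitor nuclei.

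The central 300 bp of every peak, or the whole of a shorter peak, was searched on both strands for 7 motifs. A match is a description of the letters only. The ETS letters AGGAAG were found in 12 of the 23 led peaks (52.2%, Wilson 95% interval 33.0 to 70.8), in 35.3% of the other 116 peaks of the genes and in 36.1% of 300693 peaks searched. Over all peaks led by the endothelial cluster in 5 of 5 samples, 64.8% of 4939 held them. The SOX letters AACAAT were found in 6 of the 23 led peaks (26.1%, interval 12.5 to 46.5), beside 13.9% of all peaks. The GATA letters AGATAA were found in 5 of 23 (21.7%), beside 14.4% of all peaks. The E-box letters CAGATG were found in 8 of 23 (34.8%), beside 21.5% of all peaks. The KLF letters CCACACCC were found in 3 of 23 (13.04%, interval 4.54 to 32.1), beside 2.32% of all peaks and 4.21% of all led peaks. The AP-1 letters TGACTCA were found in 1 of 23, beside 6.18% of all peaks. The FOX:ETS letters AACAGGAA, which share the GGAA core of ETS sites, were found in 0 of 23, which allows a share of up to 13.04% by 3 counts of 23 (Wilson upper bound 14.3%), beside 3.42% of all peaks and 8.30% of all led peaks. In the central 300 bp the KLF interval alone of the 7 lay above the share over all peaks. Over the whole peak those of ETS (73.9%, 53.5 to 87.5, beside 49.9% of all peaks), SOX (39.1%, 22.2 to 59.2, beside 21.8%) and KLF (17.4%, 6.98 to 37.1, beside 4.203%) did. All peaks led by the endothelial cluster held these letters in 82.8%, 36.3% and 7.43% over the whole peak, inside each of the 3 intervals. The intervals cover counting error only. Peaks differ in width, so the sets need not be alike in bases searched, above all over the whole peak. The part of width in these shares was not tested.

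**Figure D3:**
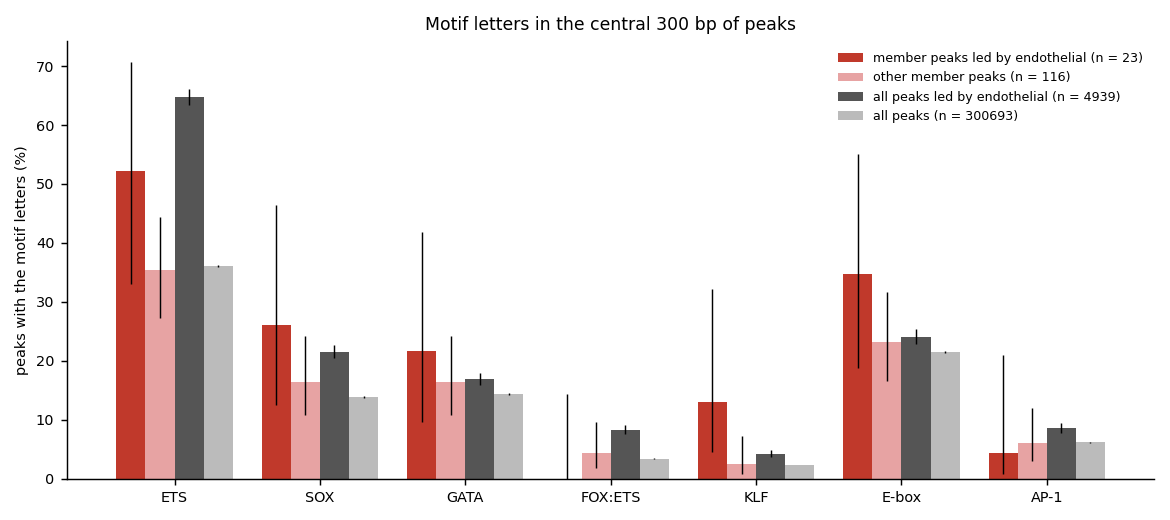
Share of peaks (percent, y axis) whose central 300 bp, or whole length if shorter, hold the letters of each of 7 motifs (x axis). The sets are the led and the other peaks of the 8 genes, all led peaks and all peaks. Error bars are Wilson 95% intervals. The intervals of the 23 led peaks are wide, and ETS letters are the most frequent in every set.

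The adult and newborn endothelium were compared on open calls summed over the endothelial nuclei of each sample, with the quasi-likelihood test of edgeR and Benjamini-Hochberg (BH) adjustment over all tested genes. The study's methods give a smaller volume of lysis buffer for P0 kidneys than for older ones, and each sample is named as its own batch. Age therefore cannot be told apart from preparation or batch. Erg, Sox7 and Klf2 were lower at P0 than in the adult, and none of the 8 genes passed the test with P0 higher. So 3 of 8 genes were called with adult higher, beside 11.4% of 21732 tested genes, and 0 of 8 with P0 higher, beside 13.9%. At an unadjusted p under 0.05 the test gave 4 of the 8 genes, with Fli1 added, beside 39.0% of all tested genes in either direction. DESeq2 called 2 with adult higher, Erg and Klf2, beside 7.07%, and 0 with P0 higher, beside 6.04%.

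Erg, counted per library size as CPM (open calls of the gene window scaled to 1000000 open calls of the endothelial nuclei of a sample), had 239 and 231 at P0 and 347, 343 and 367 in the adult samples. The groups did not overlap, and the log2 difference, P0 minus adult, was -0.62 ± 0.12 (SE, adjusted p = 0.00332 with edgeR). Klf2 had 68.2 and 73.8 at P0 against 127, 104 and 150.3, a log2 difference of -0.87 ± 0.18 (adjusted p = 0.00414 with edgeR). Sox7 had 37.7 and 31.1 at P0 against 55.5, 44.7 and 59.0, a log2 difference of -0.62 ± 0.18 (adjusted p = 0.0251 with edgeR). These 3 calls rest on both P0 samples. Without P0 sample 1 the adjusted p was 0.0902 for Erg, 0.101 for Klf2 and 0.128 for Sox7, and without P0 sample 2 it was 0.129, 0.0597 and 0.333 (edgeR). The Sox7 call was also lost with DESeq2, with P56 alone as adult (that is, without the P21 sample), with equal numbers of nuclei and without P56 sample 2.

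The other 5 genes did not pass the test. Fli1 had 294 and 275 CPM at P0 against 336, 327 and 408 in the adult samples (log2 difference -0.36 ± 0.13, adjusted p = 0.0611 with edgeR). Without P56 sample 1 Fli1 passed with adult higher (log2 difference -0.44, adjusted p = 0.0090 with edgeR) and Sox17 with P0 higher (0.42, adjusted p = 0.0440). Ets1 had 353 and 323 against 341, 344 and 328, a log2 difference of -0.03 ± 0.12. Sox17 had 80.2 and 72.7 against 60.3, 77.9 and 54.3, the only positive log2 difference (0.19 ± 0.19), and its groups overlapped. Sox18 had 50.6 and 48.1 against 53.9, 61.0 and 48.0 (-0.19 ± 0.17), and Tal1 had 68.0 and 66.9 against 71.4, 65.2 and 79.5 (-0.13 ± 0.18). The signs of Ets1, Sox17 and Tal1 turned under some settings given in the closing section, and with 10 kb upstream Sox18 passed with P0 lower (adjusted p = 0.0459 with edgeR).

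The shares of open nuclei, which are not scaled for depth, did not follow the levels in CPM, of which only that of Sox17 had a positive difference. For all 8 genes both P0 samples had a larger endothelial share than every adult sample, with differences from 8.39 points at Sox7 to 26.9 points at Ets1. In nuclei thinned to 1000 open peaks the difference was negative for all 8 genes. Erg fell from 32.8%, 31.7% and 33.3% of endothelial nuclei in the adult samples to 21.5% and 22.4% at P0. Klf2 was at 6.07% and 7.81% at P0 against 15.3%, 10.7% and 17.3%, and Sox7 at 2.08% and 3.53% against 7.94%, 6.01% and 7.02%, again without overlap. For Sox17, Ets1 and Fli1 the thinned groups overlapped. With 2 against 3 samples the exact permutation test, two-sided, cannot go below p = 0.1. It gave 0.1 for the unthinned shares of all the genes but Klf2 (0.2), with P0 higher. For thinned shares, with P0 lower, it gave 0.1 for Erg, Sox7, Sox18 and Tal1, 0.2 for Klf2, 0.4 for Sox17, 0.6 for Fli1 and 0.8 for Ets1.

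**Figure D4:**
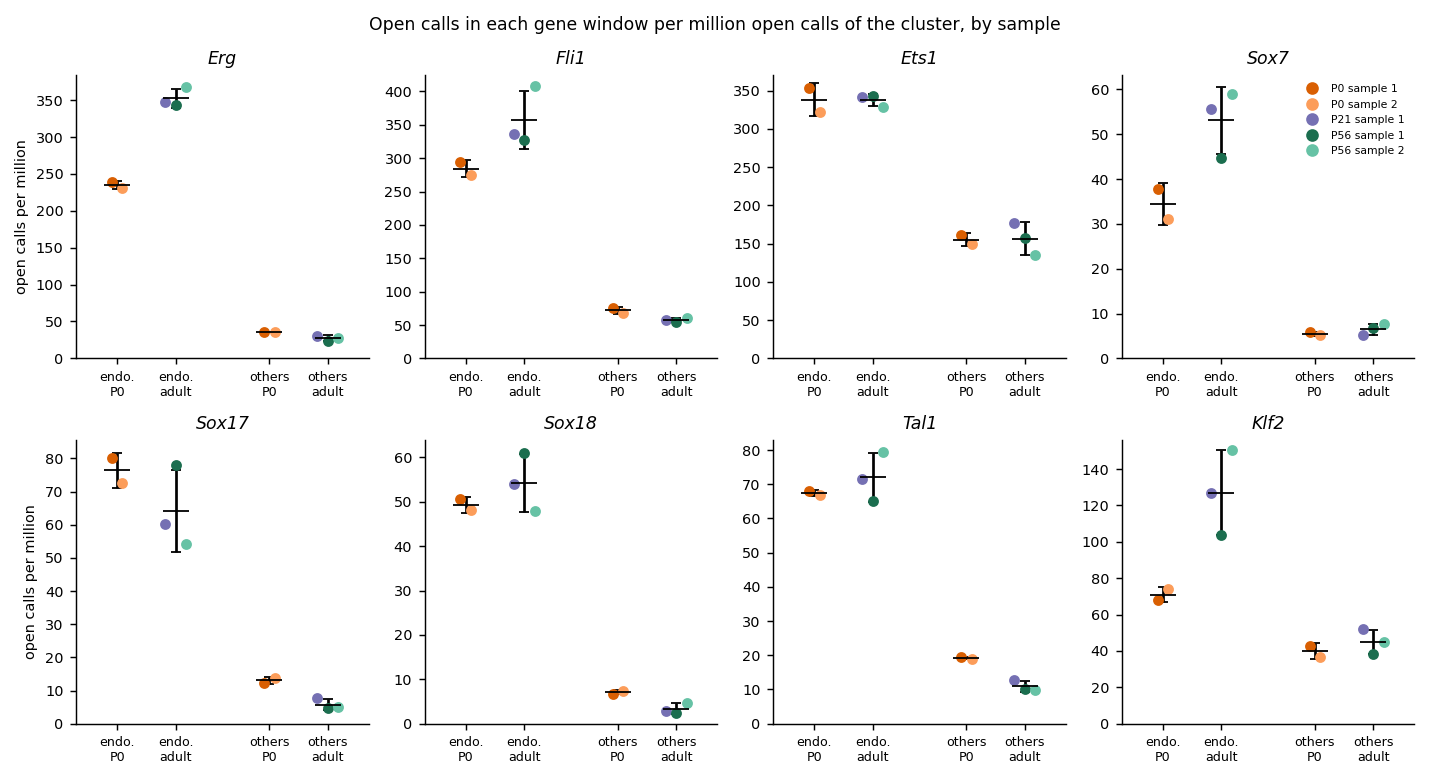
Open calls in the window of each gene as CPM of the cluster (y axis) in endothelial nuclei (endo.) and as the mean of the other 12 clusters (others), at P0 and in the adult (x axis). Points are samples, bars are means with the SD (n = 2 and n = 3). Erg, Fli1, Sox7 and Klf2 are lower at P0 in endothelium without overlap, of which Fli1 did not pass the test, while Erg, Fli1, Sox17, Sox18 and Tal1 are higher at P0 in the other clusters without overlap.

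**Figure D5:**
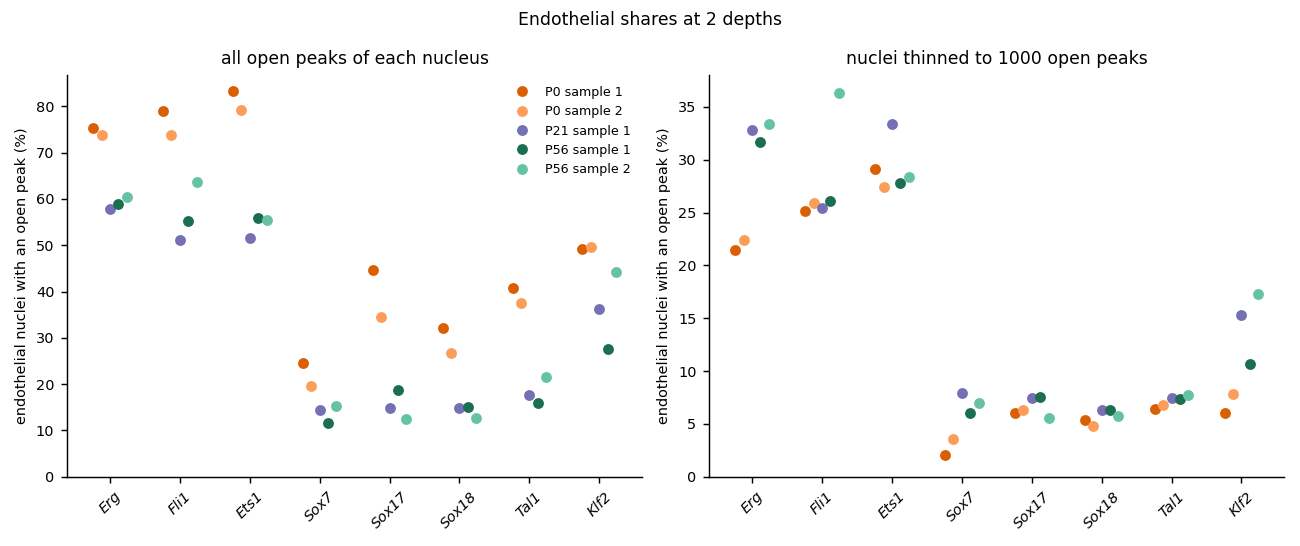
Share of endothelial nuclei with an open peak (percent, y axis) for each gene (x axis) in the 5 samples, with all open peaks of each nucleus (left) and after thinning each nucleus to 1000 open peaks (right). P0 samples are highest on the left at all 8 genes and are lowest on the right at Erg, Sox7, Sox18, Tal1 and Klf2.

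Over all tested genes the log2 difference itself varied with the level of the gene. Its median was -0.32 for 247 genes at an average log2 CPM, as edgeR scales it to the sum over gene windows, of 8 or more, -0.31 for 4336 genes from 6 to under 8, -0.12 for 6509 genes from 5 to under 6 and 0.32 for 10640 genes under 5. Erg, Fli1 and Ets1 were at 8.18, 8.29 and 8.34 on this scale, Klf2, Sox17 and Tal1 at 6.59, 6.10 and 6.07, and Sox18 and Sox7 at 5.66 and 5.39. The median over all genes was -0.00. The part of this relation, and of the depth of the P0 nuclei, in the results for the 8 genes was not tested.

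Of the 139 peaks, 58 had enough open calls to be tested between stages. Of these, 14 were higher in the adult, beside 14.8% of 45215 tested peaks, and 3 were higher at P0, beside 16.6%. Erg held 8 of the 14, including all 5 of its led peaks. The intron peak shown above had a log2 difference of -0.70 ± 0.24 (adjusted p = 0.0252 with edgeR) and the internal start peak -0.80 ± 0.22 (adjusted p = 0.00734 with edgeR). The other 3 led Erg peaks were between -0.77 and -0.68. The remaining 3 Erg peaks with adult higher had means of at most 2.63% of endothelial nuclei, the steepest (chr16:95382404-95382686) at 0.507% and 0.485% at P0 against 1.81%, 1.54% and 1.39%, so its difference of -2.93 ± 0.79 rests on few nuclei.

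The start peaks of Klf2 (-0.92 ± 0.21, adjusted p = 0.00211 with edgeR), Sox18 (-0.83 ± 0.22, adjusted p = 0.00595) and Sox7 (-0.72 ± 0.23, adjusted p = 0.0203) were also higher in the adult. The Klf2 peak holds the same open calls as the Klf2 gene. The unscaled shares went the other way at this peak (49.2% and 49.5% at P0 against 36.2%, 27.7% and 44.3%) and at the Erg intron peak above. In Fli1 the peaks with adult higher were a coding exon peak (chr9:32425302-32426334, -1.69 ± 0.34) and the intron peaks chr9:32483477-32483772 (-2.31 ± 0.67) and chr9:32518964-32520209 (-1.21 ± 0.28), the last being a led peak. The 3 peaks higher at P0 lay in Erg, Ets1 and Fli1. The Erg peak next to the outermost start (chr16:95585491-95586289) was open in 6.93% and 5.83% of endothelial nuclei at P0 and in 0.905%, 0.562% and 0.928% in the adult samples (1.71 ± 0.47, adjusted p = 0.00761 with edgeR). Few adult nuclei were open at this peak, and it passed the filter on counts through the P0 samples. Calls at Erg peaks thus went both ways, 8 with adult higher and 1 with P0 higher. The Ets1 intron peak chr9:32705962-32706572 was open in 13.01% and 11.7% at P0 against 1.36%, 1.97% and 1.39% (1.49 ± 0.34, adjusted p = 0.00192 with edgeR). The Fli1 intron peak chr9:32478179-32478616 was open in 9.12% and 9.22% against 0.905%, 1.69% and 2.09% (1.05 ± 0.36, adjusted p = 0.0293 with edgeR). Of the 17 calls, 0 remained without P0 sample 1 and 3 without P0 sample 2.

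The stage effect in endothelium was then set against the mean stage effect in the other 12 clusters, as an interaction in edgeR with the sample as a block. Its error is pooled over the sums of all 13 clusters, which come from the same 5 samples. The p-values of the interaction thus do not measure the spread of endothelium between 2 P0 and 3 adult samples. In 6 of the 8 genes, all but Ets1 and Sox7, the P0 minus adult difference was lower in endothelium than in the rest, beside 6.69% of 27681 tested genes, and in 0 of 8 it was higher, beside 4.36%. The same was lower in 19 of 29 endothelial receptors, adhesion and signalling genes (median -0.92) and in 10 of 26 other endothelial transcription factors (median -0.37), beside a median of -0.99 for the 8 genes, and higher in 0 of either list. The difference of effects was -1.34 ± 0.17 for Erg (adjusted p = 8.38e-09 with edgeR), -1.36 ± 0.37 for Sox18 (adjusted p = 0.00889), -1.18 ± 0.25 for Sox17 (adjusted p = 0.000568), -1.06 ± 0.20 for Tal1 (adjusted p = 6.92e-05), -0.92 ± 0.14 for Fli1 (adjusted p = 1.66e-06) and -0.77 ± 0.14 for Klf2 (adjusted p = 7.28e-05). Ets1 (-0.33 ± 0.13, adjusted p = 0.0848) and Sox7 (-0.46 ± 0.33, adjusted p = 0.462) did not pass.

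For Sox17, Sox18 and Tal1, whose endothelial levels in CPM did not pass the stage test, the levels in the other clusters differed between stages. The mean over the other 12 clusters was 12.4 and 13.9 CPM for Sox17 at P0 against 7.71, 4.61 and 4.97 in the adult samples. For Sox18 it was 6.77 and 7.46 against 2.83, 2.47 and 4.75, and for Tal1 19.5 and 19.0 against 12.9, 10.1 and 9.94. None of these groups overlapped. For Erg it was 36.4 and 36.4 against 30.7, 23.6 and 28.3, and for Fli1 76.0 and 68.7 against 57.2, 54.1 and 60.8, also without overlap. Without P0 sample 1 only Erg and Fli1 of the 8 kept an adjusted p under 0.05 in the interaction, and without P0 sample 2 Erg, Fli1 and Klf2 did.

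Other genes of endothelium were read from lists. Of 25 tested other transcription factors with roles in endothelium, 6 were higher in the adult and 3 at P0, beside 11.4% and 13.9% of all tested genes. Their median log2 difference was -0.26, beside -0.28 for the 8 genes and -0.00 for all genes. Among those called, Meox2, a homeobox factor, had the largest difference, with 16.2 and 19.2 CPM at P0 against 6.35, 4.73 and 5.51 (1.68 ± 0.34, adjusted p = 0.00386 with edgeR). Nr2f2, a factor of venous endothelium, had the smallest (-0.50 ± 0.16, adjusted p = 0.0336 with edgeR). Of 29 endothelial receptors, adhesion and signalling genes, 16 were higher in the adult and 2 at P0, beside the same 11.4% and 13.9%, with a median of -0.55. Cldn5, a tight junction protein, had the largest called difference, with 78.04 and 71.6 at P0 against 33.3, 26.3 and 30.7 (1.32 ± 0.18, adjusted p = 0.000366 with edgeR), and Ptprb, a vascular phosphatase, the smallest (-0.49 ± 0.13, adjusted p = 0.0165 with edgeR). In 18 of the 29 and in 6 of 26 other transcription factors the endothelial cluster led in 5 of 5 samples, beside 1.17% of all genes with a peak.

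Markers of other cell types were read in the endothelial nuclei as well. Over all tested genes 11.4% were higher in the adult and 13.9% at P0. The summed level of 10 stromal markers was 118 and 119 CPM at P0 against 77.7, 61.6 and 66.1 in the adult samples, and 3 of 7 tested were higher at P0, from Pdgfra (0.79 ± 0.23, adjusted p = 0.0245 with edgeR) to Postn (3.61 ± 0.59, adjusted p = 0.00111), and 0 in the adult. The sum of 13 immune markers was 119 and 128 at P0 against 80.9, 92.1 and 146, with 6 tested. Of these Laptm5 was higher at P0 (2.32 ± 0.46, adjusted p = 0.00345 with edgeR) and Cd74 in the adult (-2.01 ± 0.62, adjusted p = 0.0296), the latter at 74.8 CPM in P56 sample 2 and at most 12.7 elsewhere. By their highest endothelial level the 13 immune markers ranged from 0.723 CPM (C1qb), 0.787 (C1qa), 1.59 (Lyz2 and Tyrobp) and 5.86 (Ptprc) to 21.6 (Csf1r), 41.2 (Spi1) and 74.8 (Cd74). The sum of 10 tubule and podocyte markers, a list that also holds the nephron progenitor gene Six2, was 144 and 158 at P0 against 295, 189 and 236. Of 7 tested, Six2 was higher at P0 (1.38 ± 0.38, adjusted p = 0.0169 with edgeR) and Slc12a3 in the adult (-1.04 ± 0.17, adjusted p = 0.00113). The part of such nuclei in the stage results was not tested.

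Likeness between genes was described by Pearson's r of log2(CPM + 1), here scaled to the sum over gene windows, over 26 cluster-by-stage means, which share libraries and clusters. Of 14952 named protein-coding genes that share no peak with it, Erg was most like Tcf4 (r = 0.887), Rapgef4 (0.886) and Kdr (0.873). Sox18 was most like Ptprb (0.917), Tll1 (0.901) and Clec14a (0.899), Sox7 like Tie1 (0.828), Emcn (0.794) and Plvap (0.785), and Tal1 like Hhex (0.903), Arap3 (0.897) and Ntn5 (0.892). Fli1 was most like Ppp1r18 (0.944), Oasl2 (0.941) and Adam19 (0.938), and Ets1 like Fmnl2 (0.930), Cald1 (0.913) and Hrct1 (0.911). Sox17 was most like Nlgn1 (0.896), Tmeff2 (0.892) and Dnah8 (0.879), and Klf2 like Peak1 (0.887), Fli1 (0.869) and Limk1 (0.867). Among the 8 genes themselves r was highest between Fli1 and Klf2 (0.87) and between Erg and Sox18 (0.85), and lowest between Sox17 and Klf2 (0.28).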

How the data were processed

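Reads were aligned to mm10 with Cell Ranger ATAC 1.1.0 by the authors, who filtered barcodes, clustered nuclei with SnapATAC and Harmony, ran MACS2 separately for every cell type, with its samples pooled, and joined overlapping peaks. The counts used here come from the deposited nucleus by peak matrix, which the authors binarized and which is not scaled for depth; 89197 entries stored as 0 were read as closed. Cluster and sample of each nucleus are those of the deposited metadata, and the deposited peak list gives positions. Doublets were not searched for.

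Open calls were summed per sample and cluster (at least 20 nuclei) and analysed in R 4.3.3 with edgeR 4.0.16 (TMM, filterByExpr with a minimum count of 10 and total of 15, quasi-likelihood test, BH at 0.05 over all features tested) and, as an alternative, DESeq2 1.42.0. The SE is the absolute log2 difference divided by the root of F. Other steps used Python 3.11.15, numpy 2.4.6, pandas 2.3.3 and scipy 1.17.1, with GENCODE M21 and the GRCm38 genome. The tests were tried on simulated data. Named peaks are those over a start, the most open, the largest fold away from a start and those past BH for each gene. Named other genes are the 3 most alike per gene and the largest and smallest called change of each list (other endothelial transcription factors, endothelial receptors, immune, stromal, tubule and podocyte markers); further peaks and the other immune markers and Dll4, Ehd3 were chosen after their values were seen. Genes and lists were chosen with earlier results of these data known. Of the 8 genes, 139 peaks were analysed; scRNA-seq files and embeddings were not used here.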

Additional observations from a re-analysis of the deposited data

Results flagged for a closer look

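For 6 of the 8 genes the P0 minus adult difference in endothelial nuclei differed from the mean difference of the other 12 clusters in a test of the difference itself (edgeR's quasi-likelihood interaction, BH over 27681 genes). The error of this test is pooled over cluster sums of the same 5 samples. On the log2 scale the endothelial effect was lower by -1.34 for Erg, -0.92 for Fli1, -1.18 for Sox17, -1.36 for Sox18, -1.06 for Tal1 and -0.77 for Klf2. The endothelial effect was also lower in 19 of 29 endothelial receptors, adhesion and signalling genes and in 10 of 26 other endothelial transcription factors, beside 6.69% of all genes. For Sox17, Sox18 and Tal1 the endothelial level in CPM did not itself pass the stage test. Endothelial nuclei at P0 held more open peaks than those of the adult samples, and the part of depth in these differences was not tested.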

How the results depend on the processing

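The stage calls at single peaks depended most on the settings. Against 17 called peaks of the 8 genes, 8 were called with no filter on low counts, 6 with DESeq2, 6 with equal numbers of nuclei (30 peaks tested) and 0 in nuclei thinned to 1000 open peaks (edgeR, 18 peaks tested, 4 at an unadjusted p under 0.05, beside 19.8% of all). The calls of genes in thinned nuclei stayed at 3, again Erg, Sox7 and Klf2 with adult higher (edgeR adjusted p 0.0345, 0.0224 and 0.0320). Leaving out 1 sample gave 0 to 20 peaks and 0 to 5 genes, against 3 genes called. Without P0 sample 1 edgeR called 0 peaks and 0 genes, with 14 peaks and 3 genes at an unadjusted p under 0.05 (20.1% and 18.9% of all tested), and without P0 sample 2 it called 3 peaks and 0 genes, with 15 and 2 (22.9% and 21.3%). The lone P0 sample is then assumed to vary like the adult samples. The interaction called 2 to 7 genes when 1 sample was left out, against 6. The count of led peaks, 23, became 15 in thinned nuclei, 44 in the P0 samples alone (22155 of all 300755 peaks, against 4940) and 23 to 30 with 1 sample left out. Over all features, 14199 peaks and 5497 genes were called, against 4855 and 2850 with DESeq2, 723 and 1141 in thinned nuclei, 3883 and 3291 with equal nuclei, 2901 and 802 without P0 sample 1, 4229 and 1229 without P0 sample 2 and 16408 and 8298 without P56 sample 1. P0 and P56 samples share replicate numbers, but the labels do not say that a number marks a pair. The deviations of same-numbered samples correlated at 0.137 over 21732 genes in 2 pairs, and with a replicate block 17 peaks and 3 genes of the 8 were called, and 13110 peaks and 5038 genes of all.

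The sign turned for Ets1 (-0.107 to 0.0771 with 1 sample left out, positive without P0 sample 2, 0.0178 thinned, 0.0225 with equal nuclei), Sox17 (-0.13 thinned), Tal1 (0.0584 with equal nuclei), the Sox7 interaction (-0.772 to 0.00612 with 1 sample left out, positive without P0 sample 2) and the Erg peak chr16:95448816-95449855 (0.0841 thinned). Differences in share, P0 minus adult in points, turned in thinned nuclei for Erg (-10.7), Fli1 (-3.75), Ets1 (-1.52), Sox7 (-4.18), Sox17 (-0.63), Sox18 (-1.06), Tal1 (-0.90) and Klf2 (-7.50). The ETS letters were in 73.9% of the 23 led peaks over the whole peak (49.9% of all peaks), against 52.2%. The cause of these changes was not tested, beside fewer features tested or samples used. With 1 call per nucleus and peak, and 221 endothelial nuclei in the smallest sample, differences at rarely open peaks may have gone undetected. Only 58 of the 139 peaks had enough open calls to be tested between stages.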
